A study of Glycine max with 8 samples.

Results

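SNAP1 and SNAP2 are NAC transcription factors (TFs) of soybean, and the genomic sites that each of them occupied in roots with nodules were compared here, library by library. Of the 8 chromatin immunoprecipitation (ChIP-seq) libraries of the study, 4 were used for the comparison: replicates 1 and 2 of FLAG-SNAP1 and replicates 1 and 2 of FLAG-SNAP2. They held 34747 of the 57709 peaks of the series. The 4 libraries of FLAG-SNAP3 and FLAG-SNAP4 served only to ask whether a site of SNAP1 or SNAP2 was also called with another SNAP. Every library came from transgenic Glycine max hairy roots with nodules in which the coding sequence of 1 SNAP, from the cultivar Williams 82, was joined to a FLAG tag and driven by the soybean pM4 promoter. The archive's labels give the genotypes as SNAP1 mutant and SNAP2 mutant, whereas the methods describe tagged TFs in transgenic roots, and the description in the methods is followed here. The labels give the tissue as root nodule and no plant age, and no nitrogen level is named for these roots.

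NAC proteins are a large plant-specific family of TFs that share a DNA-binding domain at the N terminus. Members of the NAP branch, to which the SNAPs belong, are best known from Arabidopsis as regulators of leaf senescence. In legumes a nodule houses rhizobia that fix nitrogen, and a good supply of soil nitrogen is known to restrain nodule formation and fixation and to speed the ageing of nodules. TFs of the same family can occupy the same DNA, so a comparison of their peaks asks how far the sites, their strength and their breadth are held in common.

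The 4 libraries gave similar numbers of peaks. FLAG-SNAP1 had 8426 and 9052 peaks and FLAG-SNAP2 had 7937 and 9332, so the lowest and the highest library both belonged to FLAG-SNAP2 and the 2 TFs overlapped. The means were 8739 ± 443 (SD, n = 2) and 8635 ± 986 (SD, n = 2), a difference smaller than the spread between replicates (exact permutation test, two-sided, p = 1.00). With 2 libraries a TF, no exact permutation test can go below p = 0.333. The paper states a minimum number of reads for every sample but no sequencing depth for each library. Peak lists hold no reads, and the number of peaks may differ with depth. The methods call the replicates biological, and p-values measure only the spread between them.

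Peaks of the 4 libraries that overlapped by at least 1 bp were merged, which gave 17106 sites. The largest class held 3136 sites with a peak in all 4 libraries. A further 1282 sites had a peak in both FLAG-SNAP1 libraries and in neither FLAG-SNAP2 library, and 897 had a peak in both FLAG-SNAP2 libraries and in neither FLAG-SNAP1 library. By contrast, 8443 sites, 49.4% of all, were called in a single library. Another 2009 sites had a peak in exactly 3 libraries, and 1339 had a peak in 1 library of each TF.

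**Figure D1:**
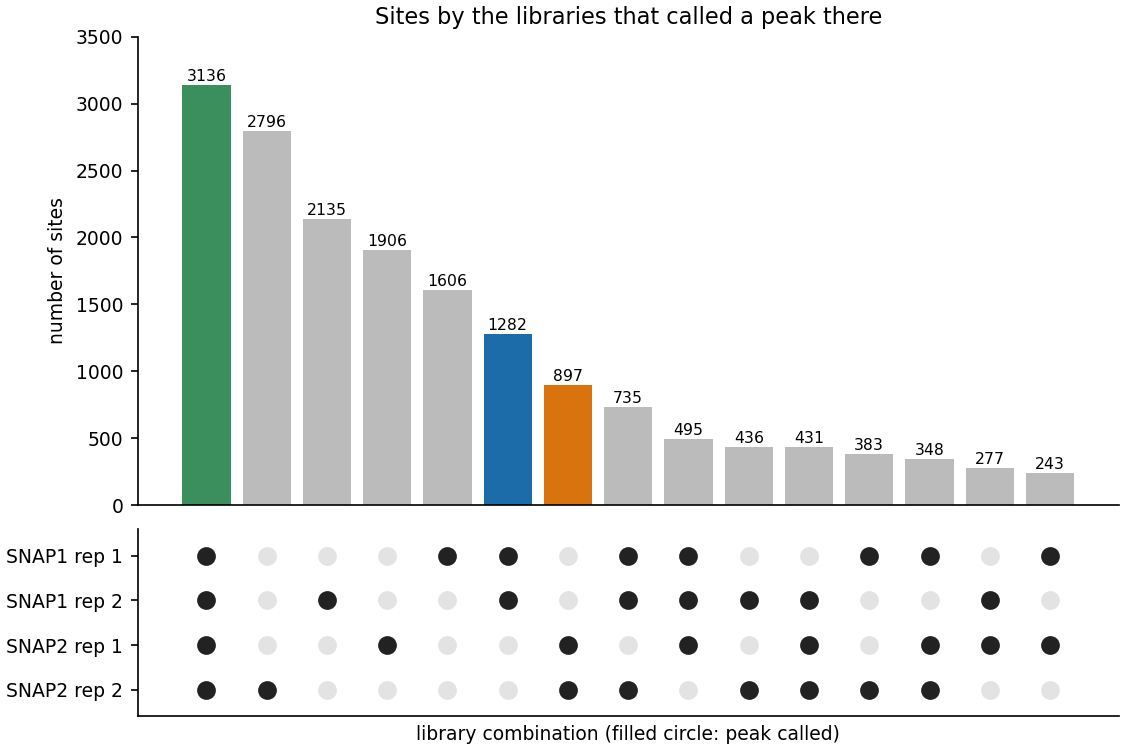
Number of sites (y axis) for each combination of the 4 libraries, with filled circles for the libraries in which a peak was called. Sites of all 4 libraries (green, 3136) outnumbered those of both FLAG-SNAP1 libraries alone (blue, 1282) and both FLAG-SNAP2 libraries alone (orange, 897), and the 4 combinations of a single library held 1606 to 2796 sites each.

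Most reproducible sites of each TF were therefore shared. Of the 5648 sites called in both FLAG-SNAP1 libraries, 55.5% were in all 4 libraries, 21.8% were in 1 of the FLAG-SNAP2 libraries and 22.7% were in neither. Of the 4812 sites called in both FLAG-SNAP2 libraries, 65.2% were in all 4 libraries, 16.2% were in 1 of the FLAG-SNAP1 libraries and 18.6% were in neither. The count of sites of 1 TF alone depended on the call: when a peak at a q-value of 0.0001 was asked for in both libraries of a TF and no peak at 0.05 in the other TF, 442 sites remained for FLAG-SNAP1 and 275 for FLAG-SNAP2. Leaving out a library asks for 1 peak in place of 2 in its TF, so the counts of that TF grew. Without replicate 1 of FLAG-SNAP1 they were 3468 for FLAG-SNAP1 and 1248 for FLAG-SNAP2, and without replicate 2 of FLAG-SNAP1 2983 and 1337. Without replicate 1 of FLAG-SNAP2 they were 1791 and 3730, and without replicate 2 of FLAG-SNAP2 2029 and 2860, so FLAG-SNAP2 then had the larger class.

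By the Jaccard index, replicates of a TF had more peaks in common than libraries of different TFs. This index, the shared peaks of a pair of libraries over all their distinct peaks, was 0.494 for the FLAG-SNAP1 pair and 0.396 for the FLAG-SNAP2 pair. For the 4 pairs made of 1 library of each TF it was 0.351, 0.354, 0.356 and 0.357, so both replicate pairs lay above every mixed pair. In shares of a library, 69.0% of the peaks of FLAG-SNAP1 replicate 1 had a partner in replicate 2, and 50.7% and 55.4% had one in the FLAG-SNAP2 libraries. For FLAG-SNAP1 replicate 2 the shares were 63.5% in its replicate and 48.3% and 52.8% in the FLAG-SNAP2 libraries. For FLAG-SNAP2 replicate 1, 61.9% of the peaks had a partner in replicate 2, and 54.4% and 56.2% had one in the FLAG-SNAP1 libraries. For FLAG-SNAP2 replicate 2, which had the most peaks, the shares were close to each other, with 52.3% in its replicate and 50.1% and 51.7% in the FLAG-SNAP1 libraries.

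The strongest peaks were common to both TFs. Strength was read from the fold enrichment that MACS2 reports at the summit of a peak and was ranked within each library, so that differences in overall enrichment between libraries did not enter. The 100 strongest peaks of each library all lay in sites of all 4 libraries. Of the peaks ranked 101 to 1000, 88.6% and 89.1% of FLAG-SNAP1 peaks and 86.9% and 88.2% of FLAG-SNAP2 peaks did so. The share fell to 47.4%, 46.5%, 46.2% and 43.4% for ranks 1001 to 3000 and to between 20.4% and 30.05% beyond rank 6000. Sites of 1 TF alone made up 2.44 to 3.22% of ranks 101 to 1000 in the 4 libraries and reached 19.2% and 16.9% beyond rank 6000 in FLAG-SNAP1, against 13.1% and 10.7% in FLAG-SNAP2.

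**Figure D2:**
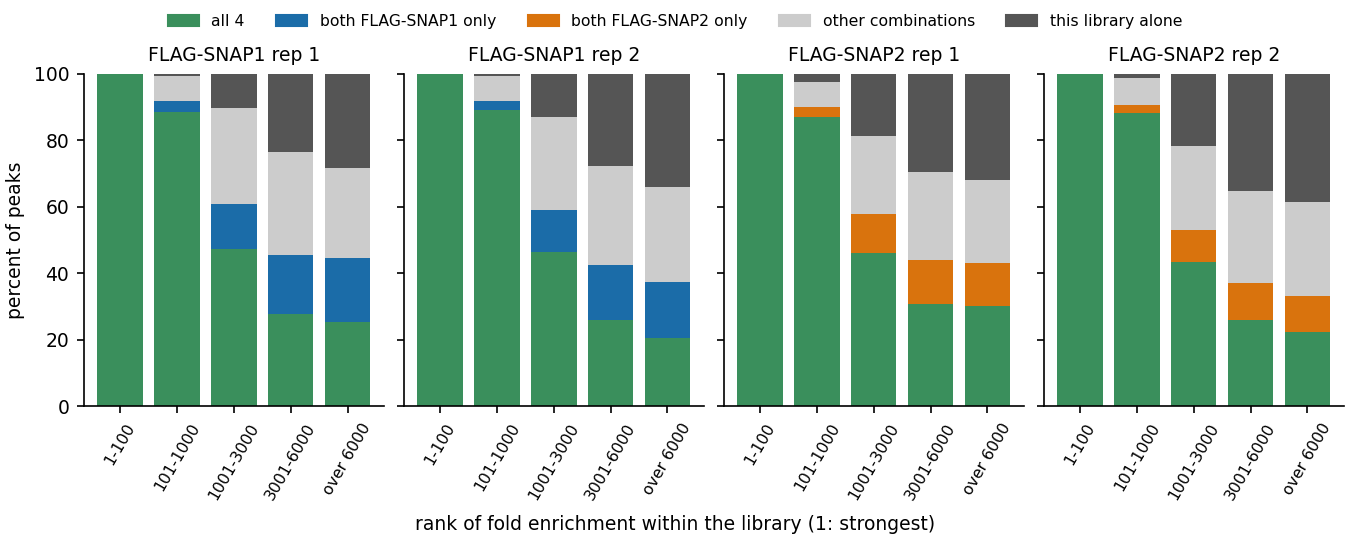
Percent of the peaks of each library (y axis) by the libraries that shared their site, in bins of the rank of fold enrichment within the library (x axis, 1 is the strongest). All 100 strongest peaks of each library were in all 4 libraries, and peaks of a single library (dark grey) grew from at most 2.33% of ranks 101 to 1000 to between 28.4% and 38.7% beyond rank 6000.

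Sites of 1 TF alone were accordingly of middling to low strength in the library that called them. A percentile of 100 is given to the strongest peak of a library. At the sites of FLAG-SNAP1 alone the median percentile was 41.2 and 41.9 in its libraries, with a median fold enrichment of 4.31 and 4.28. At the sites of FLAG-SNAP2 alone it was 43.7 and 45.4, with a median fold enrichment of 4.15 and 4.03. At the sites of all 4 libraries it was 73.1 and 75.0 for FLAG-SNAP1 and 70.3 and 73.8 for FLAG-SNAP2. Between 46.4% and 49.7% of the peaks at sites of 1 TF alone had a q-value above 0.0001, against 11.7% to 20.7% at the sites of all 4 libraries. The weakest peak listed in each library stood at a −log10 q of 1.31 to 1.34, just past the threshold of 1.30, and the absence of a peak does not show that a TF was not bound.

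The sites of 1 TF alone touch no peak of the other TF by definition, and their gaps to the nearest such peak were measured. No gap was computed for other positions in the genome, so these values are a description. For the 1282 sites of FLAG-SNAP1 alone, the median gap to the nearest FLAG-SNAP2 peak was 12.6 kb, and in 72.4% the gap was above 5 kb. For the 897 sites of FLAG-SNAP2 alone, the median gap to the nearest FLAG-SNAP1 peak was 15.0 kb, and in 71.7% it was above 5 kb. A peak of the other TF stood within 1 kb without touching at 15.0% and 12.4% of them. 

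The 5 sites with the highest mean percentile among those of FLAG-SNAP1 alone ranked between 107 and 681 in their libraries. The first, on chromosome 16 (25784169 to 25784535), lay 212 bp outside the pseudogene LOC121173654, with a fold enrichment of 11.1 and 11.9 and percentiles of 98.4 and 98.8. It also had a peak in all 4 libraries of FLAG-SNAP3 and FLAG-SNAP4, so FLAG-SNAP2 was the TF without a call there. The second, on chromosome 17 (22438033 to 22438359), had percentiles of 93.8 and 98.0 and no gene end within 2 kb, and the third, on chromosome 18 (4981645 to 4981917), had 94.1 and 97.2 and lay inside a gene but farther than 2 kb from its ends. The fourth, on chromosome 11 (18292750 to 18293107), was 1184 bp from LOC106795120, had percentiles of 95.9 and 93.0, and was the only one of the 5 without a peak in any FLAG-SNAP3 or FLAG-SNAP4 library. The fifth, on chromosome 6 (15472139 to 15472474), was 1148 bp from LOC100781037, with percentiles of 91.9 and 96.3.

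Among the sites of FLAG-SNAP2 alone, the strongest was on chromosome 4 (30693212 to 30693596), 70 bp outside LOC100794273, with a fold enrichment of 7.02 and 7.72 and percentiles of 93.2 and 96.3. The second was 1152 bp long and inside LOC100813858 on chromosome 14 (4049542 to 4050693), with percentiles of 92.0 and 93.1. The others had no gene end within 2 kb, on chromosome 12 (14457676 to 14457959, percentiles of 88.3 and 94.9) and chromosome 8 (35033625 to 35034216, 87.6 and 94.2), or lay 287 bp outside LOC100784575 on chromosome 4 (3172037 to 3172420, 90.3 and 91.6). All 5 had a peak in at least 1 FLAG-SNAP3 or FLAG-SNAP4 library. The annotation gives these loci no symbol.

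At the 5 strongest sites of all 4 libraries, the TFs ranked the same DNA at the top. The site on chromosome 15 (28347488 to 28347951) was the strongest in both FLAG-SNAP1 libraries, with a fold enrichment of 24.5 and 23.8, and the second strongest in both FLAG-SNAP2 libraries, with 19.3 and 19.4. The site on chromosome 3 (36916802 to 36917269), 1312 bp from LOC100814124, ranked 2, 2, 3 and 7 in the 4 libraries. Those on chromosome 1 (7736852 to 7737422), chromosome 7 (17243045 to 17243521) and chromosome 6 (23544085 to 23544641) ranked between 1 and 6 in every library. All 5 had a peak in each FLAG-SNAP3 and FLAG-SNAP4 library too, and 4 of the 5 had no gene end within 2 kb.

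Across the 3136 shared sites, the order of the sites was less alike between the TFs than between replicates. The correlation of the ranks, taken as normal scores, was 0.856 for the FLAG-SNAP1 replicates, 0.794 for the FLAG-SNAP2 replicates and 0.740 to 0.764 for the 4 mixed pairs. It is a description across sites, which share their libraries and are not replicates. The median distance between summits followed the same order, with 44 bp and 61 bp for the replicate pairs and 67 to 68 bp for the mixed pairs. Summits lay within 50 bp of each other at 53.2% and 44.1% of sites in the replicate pairs and at 40.9 to 41.2% in the mixed pairs.

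No single shared site passed the test for a difference in rank. The normal score of the rank was compared between the TFs at each site with limma, 2 libraries against 2, with Benjamini-Hochberg adjustment over the 3136 sites, and 0 sites passed an adjusted p of 0.05 in either direction (0% of sites tested). The smallest adjusted p was 0.22, and 434 sites had an unadjusted p below 0.05, of which 246 were higher in FLAG-SNAP1 and 188 in FLAG-SNAP2. When ranks were taken among the shared sites only, the split was nearly even. Of 446 sites with an unadjusted p below 0.05 in that fit, 226 were higher in FLAG-SNAP1 and 220 in FLAG-SNAP2. Both FLAG-SNAP1 libraries stood above both FLAG-SNAP2 libraries at 754 sites (24.0%), and both FLAG-SNAP2 libraries above at 667 (21.3%). When the log2 fold enrichment itself was fitted in place of its rank, 36 sites passed as higher in FLAG-SNAP1 and 3 in FLAG-SNAP2, on a scale where the median site was already 0.15 higher in FLAG-SNAP1. Of the unadjusted calls on that scale, 635 were higher in FLAG-SNAP1 and 69 in FLAG-SNAP2.

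The sites with the largest statistics in each direction are given as values. Beside MET2, 11 bp from the gene on chromosome 7 (15421500 to 15422073), the percentiles were 86.8 and 86.3 in FLAG-SNAP1 against 21.1 and 25.1 in FLAG-SNAP2, a difference in normal score of 1.84 ± 0.27 (SE; limma adjusted p = 0.22). Beside LOC778111 on chromosome 19 (50680634 to 50681557) they were 80.1 and 77.2 against 8.4 and 12.6. The other 3 of the 5 in this direction were a site on chromosome 3 (2154398 to 2154880) with no gene end within 2 kb, a site 835 bp from LOC100789363 and a site inside LOC100805632, with FLAG-SNAP1 percentiles of 57.0 to 94.1 and FLAG-SNAP2 percentiles of 5.0 to 44.0. The groups did not overlap at any of the 5.

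In the other direction, the site inside LOC112999043, an rRNA gene on chromosome 13 (660699 to 661857), had percentiles of 13.05 and 10.7 in FLAG-SNAP1 and 90.03 and 88.8 in FLAG-SNAP2 (difference in normal score −2.43 ± 0.27, SE; limma adjusted p = 0.22). Copies of rRNA genes are near identical, so the reads placed there are uncertain even after the filter for uniquely mapped reads. Beside LOC100808741 on chromosome 10 (2359706 to 2360459), 67 bp from the gene, the percentiles were 2.7 and 4.8 against 80.0 and 74.4. The remaining sites were 1 on chromosome 1 (3320535 to 3321550) far from genes, 1 inside LOC100813085 and 1 inside the lncRNA gene LOC102664496, with FLAG-SNAP1 percentiles of 0.5 to 21.1 and FLAG-SNAP2 percentiles of 28.0 to 87.0. None of these 10 differences passed the adjusted threshold.

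Which TF ranked a shared site higher was divided differently far from genes and inside them, in counts that were not tested. At the 698 shared sites beyond 2 kb of any gene, both FLAG-SNAP1 libraries were above both FLAG-SNAP2 libraries at 28.4% and below at 14.6%, beside 24.0% and 21.3% of all shared sites. At the 954 shared sites inside a gene and not at a tRNA gene the shares were 20.4% and 26.1%. The median percentile of the far sites was 75.9 and 77.9 in FLAG-SNAP1 and 69.8 and 75.1 in FLAG-SNAP2, and that of the sites inside genes was 48.5 and 52.7 against 51.8 and 53.9. Far sites exceeded sites inside genes by 27.4 and 25.2 percentiles in FLAG-SNAP1 and by 17.9 and 21.2 in FLAG-SNAP2. The values did not overlap, with a difference of 6.72 (exact permutation test, two-sided, p = 0.333, the smallest that 2 libraries against 2 allow). This contrast was not among the planned comparisons, and a test with this limit cannot decide it.

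**Figure D3:**
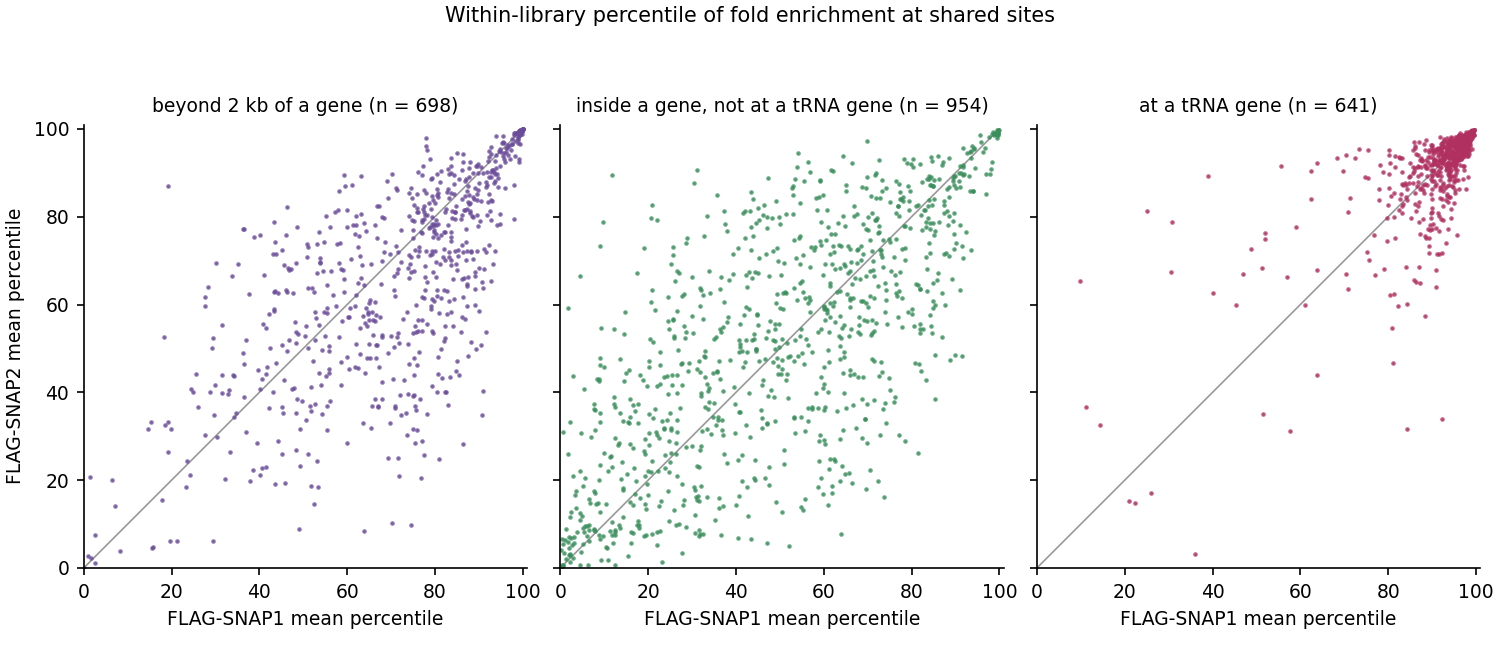
Mean within-library percentile of fold enrichment in FLAG-SNAP1 (x axis) and FLAG-SNAP2 (y axis) at shared sites beyond 2 kb of a gene, inside a gene and at a tRNA gene, 1 point a site, with the line of equal percentiles. More far sites lie below the line, more sites inside genes above it, and sites at tRNA genes gather in the upper corner for both TFs.

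Genes for transfer RNAs, which carry amino acids to the ribosome and are read by RNA polymerase III, held strong peaks of both TFs. At 641 of the 3136 shared sites (20.4%) a summit stood no more than 200 bp from a tRNA gene, against 1 of 1282 sites of FLAG-SNAP1 alone and 2 of 897 sites of FLAG-SNAP2 alone. In the 4 libraries 656, 661, 657 and 663 peaks were of this kind. Their median percentile at the shared sites was 93.9 and 94.5 in FLAG-SNAP1 and 93.6 and 94.8 in FLAG-SNAP2, and both FLAG-SNAP1 libraries were higher at 22.3% and both FLAG-SNAP2 libraries at 22.8% of them. The 2 TFs overlapped in both the number and the rank of these peaks. No input library was analysed here, and whether such peaks come from the tagged TF was not tested.

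Both FLAG-SNAP1 libraries had a larger median peak width than both FLAG-SNAP2 libraries. The median width was 356 and 371 bp in FLAG-SNAP1 and 318 and 335 bp in FLAG-SNAP2, with no overlap, a difference of 37.0 bp between means of 364 ± 10.6 (SD, n = 2) and 327 ± 12.0 bp (SD, n = 2; exact permutation test, two-sided, p = 0.333, the smallest possible). Median fold enrichment moved with it, at 4.54 and 4.49 against 4.297 and 4.12, and so did the narrow end of the widths, whose 10th percentile was 235 and 245 bp against 209 and 222 bp. Peaks of exactly these widths recurred, as at WRKY36 (235 and 245 bp in FLAG-SNAP1) and SF3'H1 (209 and 222 bp in FLAG-SNAP2). Among genes with a symbol and peaks in all 4 libraries or of 1 TF alone, no strongest peak was narrower than its library's 10th percentile. Whether this held for every peak of a library was not tested. The part of fold enrichment and of the narrow end in the median width was not tested either. At the shared sites the median width was 453 and 477 bp against 411 and 449 bp, again without overlap. It was 540 and 582 bp against 455 and 489 bp at shared sites inside a gene, and 420 and 436 bp against 382 and 414 bp at shared sites beyond 2 kb of a gene. Sites of all 4 libraries were wider in each library than sites of 1 TF alone, whose medians were 329 and 352 bp for FLAG-SNAP1 and 294 and 320 bp for FLAG-SNAP2.

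Site by site, both FLAG-SNAP1 peaks were wider than both FLAG-SNAP2 peaks at 1017 shared sites (32.4%), and the reverse held at 475 (15.1%). In the limma fit of the log2 width 0 sites passed (0% of sites tested), with a smallest adjusted p of 0.10 and 462 sites at an unadjusted p below 0.05, of which 325 were wider in FLAG-SNAP1 and 137 in FLAG-SNAP2. With widths in bp, 25 sites passed as wider in FLAG-SNAP1 and 6 as wider in FLAG-SNAP2. When widths were ranked within each library the split turned, with 208 unadjusted calls for FLAG-SNAP1 and 225 for FLAG-SNAP2. The correlation of log2 widths across shared sites was 0.740 and 0.657 in the replicate pairs and 0.522 to 0.542 in the mixed pairs.

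At single sites the differences in width could be several fold. Inside SRC2 on chromosome 15 (12671492 to 12672975) the peaks spanned 1462 and 1395 bp in FLAG-SNAP1 and 213 and 243 bp in FLAG-SNAP2, a log2 difference of 2.65 ± 0.19 (SE; limma adjusted p = 0.10). At GRP, 174 bp from the gene on chromosome 12 (3108386 to 3110415), they spanned 2025 and 1960 bp against 510 and 480 bp. The other sites of the 5 lay inside LOC100791093, LOC100819694 and LOC100800972, with 1116 to 1881 bp against 209 to 442 bp. The 5 in the other direction were led by LOC100527077 on chromosome 8 (10785031 to 10787090), with 548 and 557 bp in FLAG-SNAP1 and 2030 and 1870 bp in FLAG-SNAP2, and included LOC112998540, LOC100816661, LOC100814175 and LOC100815122, with 245 to 317 bp against 770 to 1449 bp. Of these 10 sites 8 lay inside a gene, and none passed the adjusted threshold.

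The position of peaks relative to genes did not separate the 2 TFs. Midpoints lay inside a gene for 37.9% and 38.6% of FLAG-SNAP1 peaks and 38.8% and 36.0% of FLAG-SNAP2 peaks, a difference of 0.82 percentage points (exact permutation test, two-sided, p = 1.00). Outside genes, the nearest gene end was at most 1 kb away for 30.8% and 29.2% against 29.6% and 30.6%, between 1 and 2 kb away for 7.1% and 7.3% against 7.0% and 7.9%, and farther than 2 kb for 23.9% and 24.6% against 24.3% and 25.2%. Every one of the 4 classes overlapped between the TFs. Sites of FLAG-SNAP1 alone were inside genes in 36.6% and beyond 2 kb in 25.4% of cases, sites of FLAG-SNAP2 alone in 40.5% and 23.0%, and sites of all 4 libraries in 41.1% and 22.3%. The annotation at hand gives no strand, so promoters were not told from 3′ ends.

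Each peak was then given to the closest gene by the distance from its midpoint to a gene end, up to 2 kb. Both FLAG-SNAP1 libraries had a peak at 3973 of 58643 annotated genes (6.77%) and both FLAG-SNAP2 libraries at 3526 (6.01%). Of these, 2360 genes had a peak in all 4 libraries (4.02% of annotated genes), which is 59.4% of the FLAG-SNAP1 genes and 66.9% of the FLAG-SNAP2 genes. A gene shared in this way need not hold a shared site. Of the 174 such protein-coding genes with a symbol, 137 had strongest peaks that all lay in sites of all 4 libraries. Genes with a peak in both FLAG-SNAP1 libraries and none in FLAG-SNAP2 numbered 721 (1.23%), and the reverse numbered 568 (0.969%). For 629 of the 721 and 481 of the 568 the peaks also lay in sites of that TF alone, and for the rest the sites were of another class. Without replicate 2 of FLAG-SNAP2 the counts became 1263 and 1570, and without replicate 1 of FLAG-SNAP2 1071 and 2063, so FLAG-SNAP2 then had more genes of its own. Without replicate 1 of FLAG-SNAP1 they were 1856 and 845, and without replicate 2 of FLAG-SNAP1 1598 and 889.

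Genes of several TF families had peaks of both SNAPs. The annotation names few genes, so families were taken by gene symbol, and of the 2348 protein-coding genes with a symbol 7.41% had a peak in all 4 libraries, against 3.56% of all protein-coding genes. Of 44 NAC genes, the SNAPs' own family, 9 were shared by all 4 libraries (20.5%), as were 17 of 61 WRKY genes (27.9%), TFs known for defence and senescence. Heat shock factor (HSF) genes, which encode TFs of the heat response, had 11 of 37 (29.7%), ERF, AP2 and DREB genes, which encode TFs of ethylene and stress responses, 5 of 21 (23.8%) and bZIP genes 13 of 77 (16.9%). MYB genes had 5 of 73 (6.85%). These are counts by gene, and for some members the strongest peaks did not all lie in sites of all 4 libraries. Those members were NAC3, WRKY10, WRKY23, WRKY33, WRKY56, HSF-01, HSF-05, HSF-19, HSF-25, DREB1-like, BZIP105, MYB50 and MYB124. SNAP1 and SNAP2 themselves could not be matched to the annotation.

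Genes with peaks of 1 TF alone were counted in the same families, beside 2.51% of the protein-coding genes with a symbol for FLAG-SNAP1 alone (59 of 2348) and 1.58% for FLAG-SNAP2 alone (37). For NAC genes the counts were 3 of 44 (6.82%) and 1 (2.27%). For bZIP genes they were 4 of 77 (5.19%) and 0, for ERF, AP2 and DREB genes 2 of 21 (9.52%) and 0, and for MYB genes 2 of 73 (2.74%) and 0. WRKY genes had 2 of 61 (3.28%) and 3 (4.92%), and HSF genes 0 of 37 and 1 (2.70%). Of 709 tRNA genes, 3 (0.423%) and 5 (0.705%) were of this kind. Each family count rests on 4 genes or fewer, and none was tested.

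The members concerned had peaks of modest rank. GMNAC184 on chromosome 20 had percentiles of 61.2 and 53.0 in FLAG-SNAP1, NAC26 had 64.2 and 36.1 and NAC177 had 51.3 and 26.7. NAC021, the NAC gene of FLAG-SNAP2 alone, had 33.3 and 12.6. WRKY36 had 48.1 and 51.3 and WRKY14 57.0 and 41.4 in FLAG-SNAP1, while WRKY51 had 4.0 and 8.6 in FLAG-SNAP2. These peaks lay in the middle or lower part of their libraries. BZIP8 (12.4 and 44.5), BZIP42 (22.9 and 13.4), EREB (17.5 and 10.8), DREB5 (9.0 and 4.1) and DNAJ, for a heat shock protein partner (19.7 and 21.4), were of FLAG-SNAP1 alone, and HSF-03 (10.8 and 8.1) of FLAG-SNAP2 alone. The list by symbol held only 2 DnaJ or HSP40 genes. The paper reports several such genes as targets of both SNAP1 and SNAP2, under identifiers that could not be matched here. For BZIP48, BZIP90, MYB81, MYB175, WRKY34 and WRKY55 the peaks of the gene were of 1 TF alone, but their sites were of another class.

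Of the 9 shared NAC genes, 4 ranked higher in both FLAG-SNAP2 libraries than in both FLAG-SNAP1 libraries. At SNAC38 on chromosome 10 (45205633 to 45206004) the percentiles were 10.2 and 40.4 in FLAG-SNAP1 and 89.4 and 93.9 in FLAG-SNAP2, a difference in normal score of −2.16 ± 0.42 (SE; limma adjusted p = 0.24). At NAC4 they were 29.2 and 12.0 against 55.8 and 65.3. At NAC19 they were 43.7 and 54.7 against 75.9 and 91.5, and at NAC27 35.1 and 52.6 against 76.2 and 75.2. In these 4 genes both FLAG-SNAP2 libraries exceeded both FLAG-SNAP1 libraries, and the other 5, NAC1, NAC2, NAC3, NAC018 and NAC51, overlapped. All 9 are thus named, with 4 of 9 (44.4%) in 1 direction and 0 in the other, beside 23.6% and 22.8% of the 2360 shared genes, and no difference passed the adjusted threshold.

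The other families were counted in the same way, beside the 22.8% of all shared genes that were higher in both FLAG-SNAP1 libraries and the 23.6% that were higher in both FLAG-SNAP2 libraries. Of 17 shared WRKY genes, 4 (23.5%) were higher in FLAG-SNAP1 and 7 (41.2%) in FLAG-SNAP2. Of 5 shared MYB genes, 3 (60%) were higher in FLAG-SNAP1 and 0 in FLAG-SNAP2, and of 11 HSF genes 2 (18.2%) and 1 (9.09%). Of 13 bZIP genes, the counts were 2 (15.4%) and 2 (15.4%), and of 5 ERF, AP2 and DREB genes 2 (40%) and 0. Among the genes so counted, MYB50, WRKY10, HSF-01 and DREB1-like had strongest peaks that did not all lie in sites of all 4 libraries. The following examples were chosen after their values were seen. WRKY47 had percentiles of 24.2 and 27.3 in FLAG-SNAP1 and 67.9 and 78.5 in FLAG-SNAP2. WRKY33 had 40.4 and 38.0 against 2.4 and 6.3, although its strongest peaks did not all lie in sites of all 4 libraries. MYB114 had 88.3 and 82.3 against 15.7 and 57.4, and HSF-16 was high in all 4 libraries (83.1, 90.7, 89.5 and 93.9). The counts rest on few genes and are a description.

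**Figure D4:**
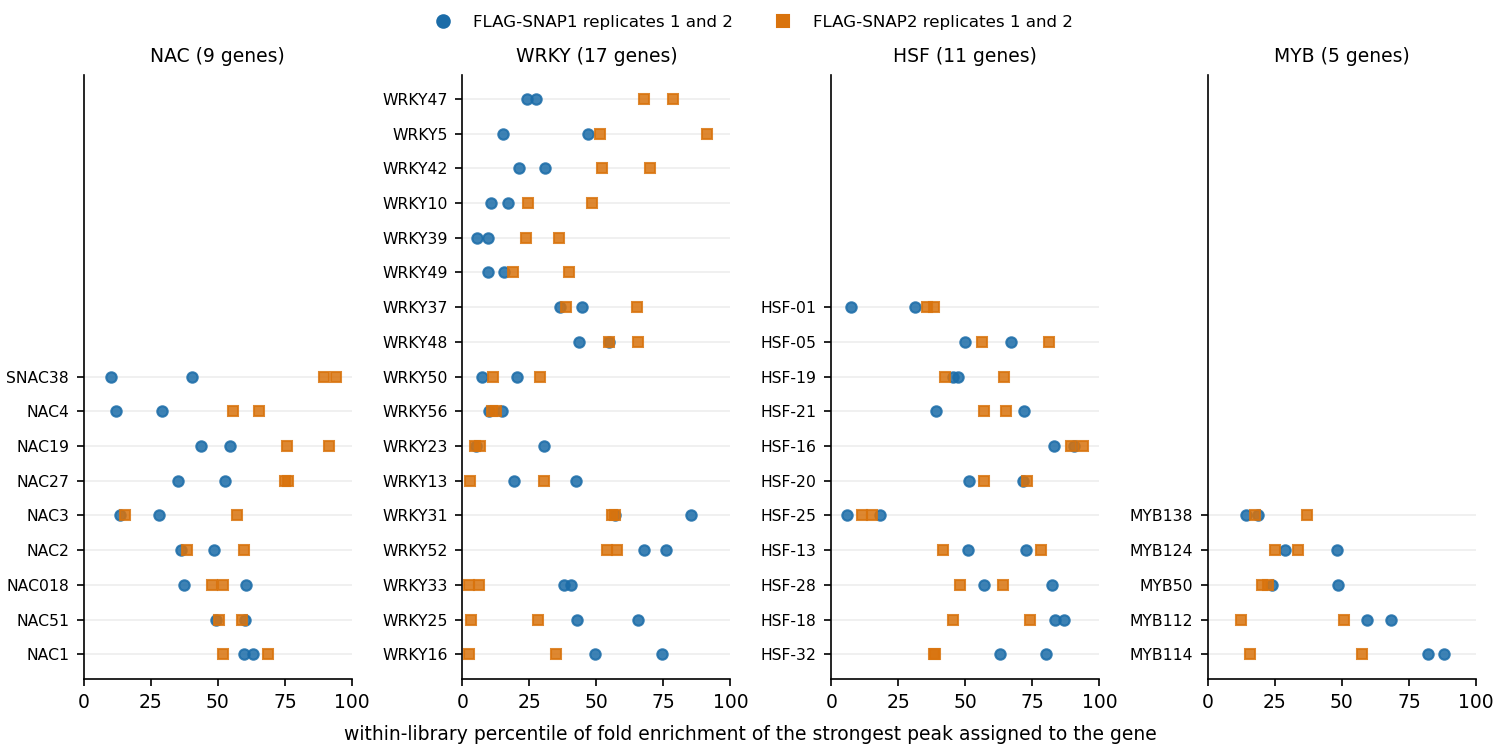
Within-library percentile (x axis) of the strongest peak assigned to each NAC, WRKY, HSF and MYB gene with a peak in all 4 libraries, with FLAG-SNAP1 libraries as blue circles and FLAG-SNAP2 libraries as orange squares, and genes ordered by the difference of the means. SNAC38, NAC4, NAC19 and NAC27 have both orange squares to the right of both blue circles, and no NAC gene has the reverse.

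The lists of nodule, nitrogen and senescence genes were short, and their counts stand beside 7.41% of genes with a symbol that had a peak in all 4 libraries and 69.3% that had none in any. None of 4 leghemoglobin genes, whose products carry oxygen in the nodule, had a peak in any of the 4 libraries, and of 16 nodulin genes NOD33 alone (6.25%) had a peak in all 4, with percentiles of 80.3, 88.1, 84.96 and 89.3. The nitrate transporter gene NRT2, 1 of 3 in the list (33.3%), had a peak in all 4, at 23.0 and 18.9 in FLAG-SNAP1 and 56.1 and 42.5 in FLAG-SNAP2, in peaks that did not all lie in sites of all 4 libraries. Its strongest FLAG-SNAP1 peaks began at 41195277 and 41195172 on chromosome 13, and its strongest FLAG-SNAP2 peaks at 41199513 and 41199717. The percentiles of the 2 TFs at NRT2 thus belong to separate positions. None of 6 glutamine or asparagine synthetase genes, of 6 autophagy genes or of 2 genes for vacuolar-processing enzymes, proteases of senescing cells, had a peak in both libraries of either TF. Lists this short do not set these genes apart from the rest. The paper reports genes for vacuolar-processing enzymes as targets of SNAP1 or of SNAP3, under identifiers that could not be matched here. Whether the 2 genes listed by symbol are among them is not known, so their lack of peaks does not speak to that report. NMHC5, a MADS-box gene expressed in nodules, had 80.4 and 52.7 against 88.9 and 88.3 and was picked after its values were seen.

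Further named genes with peaks of 1 TF alone were picked after their values were seen and stand for no pathway. NCED2, which makes the committed step of abscisic acid synthesis, had percentiles of 66.4 and 74.2 in FLAG-SNAP1 and no FLAG-SNAP2 peak. ZEP, which supplies the epoxidised carotenoid upstream of that step, had 51.3 and 51.2 in FLAG-SNAP2 and no FLAG-SNAP1 peak. The brassinosteroid-response TF gene BES1-1 (82.7 and 82.5) and the NRAMP metal transporter gene DMT1 (76.9 and 91.8) ranked high in FLAG-SNAP1 alone. Phosphate transporter genes were found in each class, with PHT1-1 (69.4 and 58.2) and PHT1-5 (57.1 and 43.3) in FLAG-SNAP1 alone, PHO1-H6 (88.2 and 42.3) in FLAG-SNAP2 alone and PHT1-2 and PHO1-H9 in all 4 libraries.

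Of the 31 symbol families with 15 or more genes, 9 had more members of FLAG-SNAP1 alone, 7 had more of FLAG-SNAP2 alone and 13 had none of either. The families named next were picked from these after their counts were seen, and the same shares of 2.51% and 1.58% of genes with a symbol stand beside them. Of 85 CRK genes, for receptor-like kinases, 0 were of FLAG-SNAP1 alone and 4 (4.71%) of FLAG-SNAP2 alone, and of 65 IQD genes 2 (3.08%) and 0. For CRK17, 1 of the 4, the FLAG-SNAP2 peaks began at 48127235 and 48132845 and their sites were of another class. The SWEET sugar transporter genes, 43 in all, had 2 of FLAG-SNAP1 alone (4.65%), SWEET31 (percentiles of 69.8 and 93.6) and SWEET14 (48.7 and 31.8), and 1 of FLAG-SNAP2 alone (2.33%), SWEET38 (61.9 and 34.3). Of 16 CHS genes, for chalcone synthase, the first enzyme of the flavonoid pathway, 12 had no peak in any library, CHS9 (65.1 and 62.7) was of FLAG-SNAP1 alone and CHS13 (91.2 and 62.3) of FLAG-SNAP2 alone. CHS genes are close copies, so a read may not be placed with certainty among them.

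Fewer sites of 1 TF alone than shared sites had a peak of another SNAP. Of the sites of FLAG-SNAP1 alone, 21.8% and 11.7% had a peak in the FLAG-SNAP3 libraries and 23.5% and 25.04% in the FLAG-SNAP4 libraries. Of the sites of FLAG-SNAP2 alone, the shares were 20.3% and 11.7%, and 23.3% and 31.8%. The means of 20.5% ± 6.01 and 21.8% ± 8.28 (SD over 4 libraries) differed by 1.27 percentage points, less than their spread (exact permutation of signs over the libraries, two-sided, p = 0.875), and turned to 0.55 without FLAG-SNAP4 replicate 2. Of the sites of all 4 libraries, 66.6%, 53.1%, 71.7% and 79.6% had such a peak, which was higher in 4 of 4 libraries than for either class of 1 TF and gave p = 0.125 in the same exact test, the smallest possible with 4 libraries. No peak of FLAG-SNAP3 or FLAG-SNAP4 was found at 53.2% of the sites of FLAG-SNAP1 alone, at 48.7% of those of FLAG-SNAP2 alone and at 7.94% of the shared sites. Sites of 1 TF alone were also weaker and narrower than shared sites, as given above, and the part of strength in these shares was not tested.

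**Figure D5:**
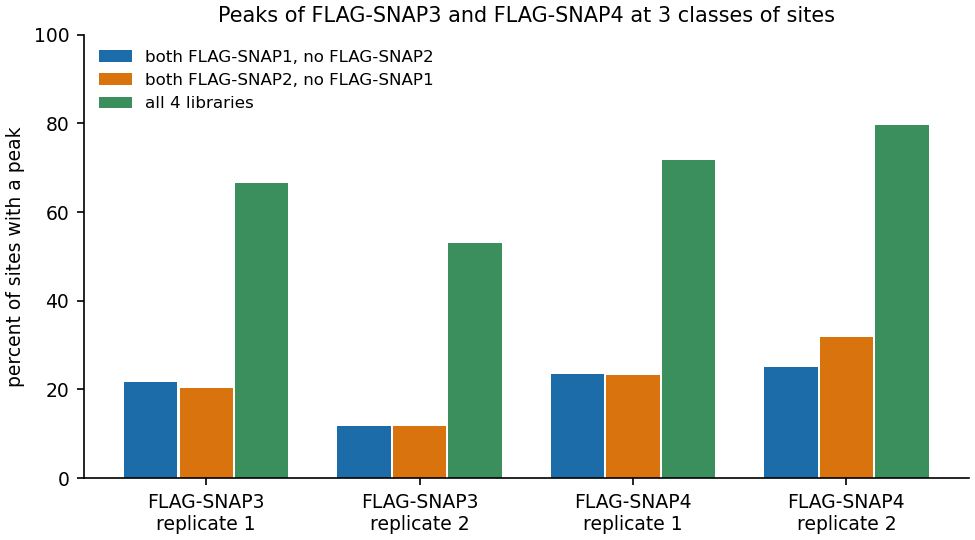
Percent of sites (y axis) at which each FLAG-SNAP3 and FLAG-SNAP4 library had a peak, for sites of both FLAG-SNAP1 libraries alone (blue), both FLAG-SNAP2 libraries alone (orange) and all 4 libraries (green). Shared sites reach 53.1 to 79.6%, and the classes of 1 TF stay between 11.7 and 31.8%.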

How the data were processed

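The authors trimmed reads with Trim Galore 0.6.6, aligned them to the Wm82 a4.v1 genome with Bowtie2 2.3.4.3, kept uniquely mapped pairs and called peaks in each library separately with MACS2 2.2.7.1 at a q-value of 0.05. For every peak the authors deposited a score, a fold enrichment (a ratio, read at the summit), a −log10 p-value, a −log10 q-value and the summit. No control library is named in the sources used here. Peaks of the 4 libraries were merged into sites at 1 bp of overlap, with the strongest peak kept for each library. Fold enrichment was ranked within a library, and ranks and log2 widths were compared with limma 3.58.1 (R 4.3.3). Other values were compared by exact permutation over libraries. Genes came from the RefSeq table of Glycine_max_v4.0, which has symbols but neither strand nor product names, so the planned lists by product name were replaced by lists by symbol, lists without symbols (TCP, PP2C, histone, ribosomal protein, trehalose-phosphate) were left out, and the planned motif search was not run. Named sites are the 5 of highest mean percentile in a class and the 5 of largest statistic in a direction, and list members of 1 TF alone; genes outside this rule are marked. Members and lists were chosen with earlier results of these data known. Steps were tested on simulated data. Python 3.11.15 with SciPy 1.17.1 was used, and alternatives are given in the closing section.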

Additional observations from a re-analysis of the deposited data

How the results depend on the processing

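Under a q-value of 0.0001 the sites of FLAG-SNAP1 alone fell to 856, those of FLAG-SNAP2 alone to 471 and those of all 4 libraries to 1929. The genes fell to 530 for FLAG-SNAP1 alone, 330 for FLAG-SNAP2 alone and 1470 for all 4 libraries. With a q-value of 0.0001 in 1 TF and absence at 0.05 in the other, 442 sites were left for FLAG-SNAP1 and 275 for FLAG-SNAP2, as the stricter call implies. Leaving out 1 library, the counts ranged from 1791 to 3468 sites for FLAG-SNAP1 alone, 1248 to 3730 for FLAG-SNAP2 alone and 3475 to 3864 for shared sites, and from 1071 to 1856, 845 to 2063 and 2637 to 2902 genes, since fewer libraries are then asked for or barred. The difference in peak number (FLAG-SNAP1 minus FLAG-SNAP2, 105 in the main comparison) ranged from −593 to 802, and that in median width from 28.5 to 45.5 bp. The difference in the share of peaks inside genes, 0.82 percentage points, became −0.68 at a q-value of 0.0001 and −0.40 when each library was limited to its 7937 strongest peaks, and ranged from −0.58 to 2.22 without 1 library. That within 1 kb of genes, −0.12, became −1.65 and 0.0945 under these settings, and ranged from −0.94 to 0.70. The difference in the share of sites with FLAG-SNAP3 or FLAG-SNAP4 peaks, −1.27, ranged from −2.19 to 0.55, the last without FLAG-SNAP4 replicate 2. Limma called 36 and 3 shared sites on log2 fold enrichment and 25 and 6 on width in bp, and otherwise 0 for rank and 0 for width, also without each library. The cause of these changes was not tested. Replicate numbers did not pair the samples (correlation of same-numbered deviations −0.0005 for rank and −0.062 for width), and the fit with a replicate block called 0 sites for rank and 0 for width. Of 135 alternative values in all, 104 stayed with the main result. For counts of sites and genes this meant within a fixed fold of it, and for limma calls an equal count. For the other values it meant the same sign and a change below the spread between libraries. Many of the 104 are limma counts of 0 beside 0, so the tally is no measure of stability. The depth of each library is unknown, and 2 libraries a TF limit every test.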

Other observations

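Non-coding genes other than tRNA genes were also nearest to sites of the 2 TFs, counted with the same limit of 2 kb. LncRNA genes took 25 of the 1282 sites of FLAG-SNAP1 alone (1.95%), 16 of the 897 sites of FLAG-SNAP2 alone (1.78%) and 43 of the 3136 sites of all 4 libraries (1.37%). Pseudogenes took 25 (1.95%), 10 (1.11%) and 37 (1.18%). Genes for miRNAs took 4 (0.312%), 0 and 13 (0.415%), and genes for snRNAs, which encode RNAs of the spliceosome, took 3 (0.234%), 0 and 16 (0.510%). On chromosome 16, which holds 3.89% of annotated genes, there were 60 sites of FLAG-SNAP1 alone (4.68% of them), 20 of FLAG-SNAP2 alone (2.23%) and 102 of all 4 libraries (3.25%). It was picked after the counts were seen, and these are counts without a test.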
